A study of Mus musculus with 9 samples.

Results

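The protein components of the cytosolic ribosome, encoded by the Rpl and Rps genes, were followed across 9 Affymetrix mouse arrays of sorted myeloid progenitors. Members were taken by symbol: every gene named Rpl or Rps with a number, together with the stalk genes Rplp0 to Rplp2 and with Rpsa, leaving out kinases, binding proteins and pseudogenes. Of the 18194 genes that the platform annotation named alone on at least 1 probe set, 49 qualified, through 105 probe sets. They comprised 22 core genes of the large subunit, 21 of the small subunit and 6 paralogues or relatives (Rpl3l, Rpl7l1, Rpl22l1, Rpl39l, Rps4l and Rps27l). A further 31 ribosomal protein genes were listed solely on probe sets that name several genes, and Rplp1, Rpl3, Rpl5, Rpl10, Rpl26, Rpl35a and Rps27a are among the genes with no value of their own here. There were 3 groups of 3 arrays each. The first held leukaemic K/L mice, which carry mutations of both Cebpa alleles, and the second leukaemic mice overexpressing Sox4, with the vector or promoter not given in the sources used here. The third held wild type mice. All were C57/BL6 and 2 to 4 months old, and the tissue is labelled blood. The FrII cells were sorted for c-Kit and for low or positive Mac1, without Sca-1 or lineage markers, and the extract protocol adds a gate for CD45.2 without CD45.1 that the wild type source name does not repeat. Descriptions give a numbered mouse per array and titles speak of mice, so n counts arrays and p-values measure the spread between them, which may in part be technical.

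A ribosome joins a small subunit, which reads the mRNA, to a large subunit, which forms peptide bonds, and each protein sits at a fixed place in its subunit. Ribosomal protein mRNAs typically begin with a cytosine followed by a run of pyrimidines, the terminal oligopyrimidine (TOP) tract through which mTOR signalling controls their translation. In blood cells these genes are known through inherited Diamond-Blackfan anaemia and the acquired 5q- syndrome, in which loss of a single copy of a ribosomal protein gene impairs red cell formation, and through the free proteins, such as RPL11, that bind MDM2 and stabilise p53. Several have paralogues used in particular tissues or in ribosome assembly.

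Start sites of some members described below are shown for this tract. The 30-base windows that follow run from 12 bases before the RefSeq transcription start to 18 bases from it, 5′ to 3′ on the gene's strand in assembly GRCm38.p6, and capitals mark the longest run of at least 6 pyrimidines. The first 5 are core genes chosen because the results turn on them or because they show the tract plainly, and the last 3 are paralogues, shown for contrast.
Rplp2, chr7:141447639-141447668, plus strand: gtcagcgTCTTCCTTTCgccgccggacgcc
Rps18, chr17:33955648-33955677, minus strand: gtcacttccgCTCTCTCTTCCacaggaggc
Rps6, chr4:86857350-86857379, minus strand: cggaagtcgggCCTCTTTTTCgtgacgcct
Rps10, chr17:27635227-27635256, minus strand: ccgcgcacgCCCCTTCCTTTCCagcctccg
Rpl14, chr9:120571505-120571534, plus strand: cgggCCCTCTCTCTTCTCgctgagcgccgc
Rpl7l1, chr17:46782639-46782668, minus strand: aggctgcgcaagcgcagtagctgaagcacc
Rps27l, chr9:66946074-66946103, plus strand: CTCCTCCCCgccgcctctatcccggaagtt
Rpl3l, chr17:24727814-24727843, plus strand: tgttctagctctgtcatttgacctctggtg
The longest such run was 10 bases in Rplp2 and Rps6, 11 in Rps18, 13 in Rps10 and 14 in Rpl14. It was 9 in Rps27l, where it ends before the start, and there was none in Rpl7l1 or Rpl3l. Rps27l and Rpl3l have 2 listed starts each, of which the most upstream is shown. Because the windows were picked, these lengths do not compare core genes with paralogues.

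Promoters, taken as 250 bases before to 50 bases after each listed start, were available for 38 core genes with 44 starts and for 5 paralogues with 7 starts. A cytosine at the listed start followed by 4 pyrimidines stood at 8 core starts (18.2%), against 2.51% of all 32851 promoters. A run of 6 pyrimidines between 10 bases before and 20 bases after the start was present at 25 core starts (56.8%). It was present at 3 of the 7 paralogue starts (42.9%), against 28.7% of all promoters. The ETS motif CCGGAAG, read on both strands, stood in 19 core promoters (43.2%) against 8.86% of all promoters. The YY1 motif AAGATGGC, also read on both strands, stood in 3 core promoters (6.82%) against 2.75%. These matches describe the letters in the windows and carry no measure of binding.

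Array medians ranged from 43.07 to 46.79 in linear intensity, and having 3 arrays a group limits precision. Sox4 itself averaged 10.67 ± 0.18 in K/L and 9.74 ± 0.13 in Sox4 leukaemic cells, against 3.87 ± 0.08 in wild type cells (log2, SD, n = 3 each). Sox4 was thus high in both leukaemias, and higher in K/L than in Sox4 cells by 0.93 ± 0.12 (adjusted p = 0.00025). The leukaemias did not overlap in it, and the higher level was not in the group labelled as overexpressing Sox4. Replicate arrays correlated at r of at least 0.991 over tested genes, except wild type array 3 with the other wild type arrays (0.979 and 0.977). The 3′ to 5′ signal ratio of the Gapdh control probe sets, a measure of RNA quality, was 1.93 to 2.01 on K/L, 2.22 to 2.44 on Sox4 and 2.68 to 2.91 on wild type arrays, and the groups did not overlap in it. The same ratio for the actin control was 0.87 to 0.91 on K/L, 0.88 to 0.91 on Sox4 and 0.88 to 0.98 on wild type arrays. In the actin ratio the groups overlapped. Summed linear intensity of 9 of the 10 neutrophil markers was 14660–15390 in K/L, 27720–28640 in Sox4 and 39250–41810 in wild type cells, with S100a8 and S100a9 the markers that fell most. The sum follows the brightest genes: in Sox4 cells 4 of these 9 were higher than in wild type and 3 lower (median log2 difference 0.27), with Ltf 5.03-fold higher, and in K/L 5 were lower. The 7 monocyte markers measured of 8 summed to 2256–2647 in K/L, 4672–5162 in Sox4 and 1471–1529 in wild type cells. Of the 6 tested, 2 were higher and 1 lower in K/L than in wild type, and 5 higher and 1 lower in Sox4 cells. Adgre1 fell in both, by -0.41 in K/L (adjusted p = 0.026) and -3.22 in Sox4 cells (adjusted p = 8.9e-08). The 8 erythroid markers measured of 10 summed to 1442–1705 in K/L, 2396–2925 in Sox4 and 2364–2745 in wild type cells, and on all 3 K/L arrays 4 of them lay below the 40th percentile of the array. Of the 6 erythroid markers tested, 4 were higher in Sox4 cells than in wild type (Car1 14.2-fold, Ermap 2.82-fold, Gata1 2.59-fold and Klf1 2.16-fold), and 5 were lower in K/L than in Sox4 cells. In K/L against wild type, Tfrc, the brightest of them, was lower (-0.82, adjusted p = 0.00063). The other 5 did not pass in that comparison, where the median log2 difference of the 6 was -0.02. The 5 B cell markers measured of 6 summed to 383.9–417.3 in K/L, 418.6–505.9 in Sox4 and 190.1–215.9 in wild type cells. Of the 3 tested, 2 were higher in K/L than in wild type and 1 did not pass. In Sox4 cells Cd79b was higher (1.90), Cd79a lower (-0.63, adjusted p = 0.032), and Pax5 did not pass. The 6 T and NK cell markers measured of 8 summed to 194.3–215.3 in K/L, 195.4–199.3 in Sox4 and 183.2–188.5 in wild type cells. Kit, the c-Kit of the gate, averaged 9.22 in K/L, 9.18 in Sox4 and 9.17 in wild type cells, while Itgam (Mac1) lay at or below the filter level on most arrays. Ptprc (CD45) was lower in the leukaemias, with 10.89 in K/L, 10.83 in Sox4 and 11.33 in wild type cells and differences of -0.44 in K/L (adjusted p = 0.0048) and -0.49 in Sox4 cells (adjusted p = 0.0025). The Gapdh ratio, Ptprc and some of the neutrophil, monocyte, erythroid and B cell markers differed between groups, and their part in the results below was not tested. In bulk RNA of sorted cells, fewer cells of a type and less RNA per cell cannot be told apart.

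Ribosomal protein genes differed little between the groups. Across the 45 members that passed a filter on dim signal, the median log2 difference was 0.07 for K/L against wild type, 0.02 for Sox4 against wild type and 0.05 for K/L against Sox4. Over all 12826 tested genes the medians were 0.06, 0.03 and 0.03. The size of the difference without its sign had a median of 0.14, 0.08 and 0.07 in members, against 0.36, 0.34 and 0.22 over all tested genes. Most members have brighter signal than most tested genes, and sizes at like signal are given below. Relative to the wild type mean of each gene, the median over all 49 members stood at 0.06, 0.09 and 0.09 on the K/L arrays, at 0.01, 0.06 and 0.00 on the Sox4 arrays and at 0.02, -0.02 and 0.01 on the wild type arrays. Every K/L array lay above every wild type array in this measure, and Sox4 and wild type arrays overlapped. The measure depends on how the arrays are scaled, and the K/L shift is near the median of 0.06 over all tested genes. With arrays centred on their medians, the K/L median was 0.16 over members and 0.15 over all tested genes.

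In the limma fit with Benjamini-Hochberg adjustment over all tested genes, 4 members were higher and 4 lower in K/L than in wild type cells, and 37 did not pass. That is 17.8% of tested members, where 50.6% of all tested genes passed (29% higher and 21.6% lower). In Sox4 cells 5 members were higher and 7 lower than in wild type, with 33 not past the threshold, or 26.7% of members against a background of 47.8% (26.7% higher and 21.1% lower). Between the leukaemias, 3 members were higher and 2 lower in K/L than in Sox4 cells, or 11.1% of members against 28.9% of all tested genes (14.9% higher and 14% lower). These counts include Rps4l, which entered the test only through the Sox4 arrays, on which it is high. Among the other 44 members, 4 were higher and 7 lower in Sox4 cells than in wild type, and 3 higher and 1 lower in K/L than in Sox4 cells. Apart from Rps4l, the one member past the test by at least 2-fold was Rps24, lower in both K/L and Sox4 cells than in wild type. Among all tested genes, 9.38% were that much higher and 7.25% lower in K/L, and 9.2% higher and 6.37% lower in Sox4 cells, than in wild type. Between the leukaemias no member but Rps4l was that far apart in the limma test, where 3.63% of all tested genes were that much higher and 5.45% lower in K/L than in Sox4 cells.

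These splits depend on how the arrays are scaled and on how the spread is modelled. With an intensity trend, which lets the prior spread follow signal level, 13 members were higher and 5 lower in K/L than in wild type. The counts were 8 and 8 in Sox4 than in wild type, and 8 and 2 in K/L than in Sox4. Of 12826 tested genes, 6675, 6328 and 3888 passed in that fit, against 6490, 6135 and 3702 without the trend. With each array centred on its median, 13 members were higher and 2 lower in K/L than in wild type, 5 and 6 in Sox4 than in wild type, and 7 and 2 in K/L than in Sox4. With each array centred on the median of the ribosomal protein genes, the counts were 2 and 7, 3 and 7, and 2 and 3. The median over all tested genes was 0.15, 0.04 and 0.11 under the first centring and -0.04, 0.03 and -0.07 under the second, in the same 3 comparisons. Of all tested genes, 6713, 6152 and 4002 passed under the first centring and 6097, 5800 and 3446 under the second.

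All 3 arrays of K/L cells lay above all 3 of wild type for 18 tested members and below for 8, where 33% and 25.1% of all tested genes did so (58.1% together). For Sox4 against wild type it was 10 above and 9 below, against 31.1% and 25.1% of all tested genes (56.2% together). For K/L against Sox4 it was 15 above and 5 below, against 27.3% and 23.8% (51.1% together). The standard error of a member's difference had a median of 0.09. Among members not past the threshold, the unadjusted 95% interval of the change stayed within 1.5-fold either way for 34 of 37 in K/L against wild type, the exceptions being Rpl41, Rps20 and Rps4l. The same held for 32 of 33 in Sox4 against wild type (all but Rps27) and for 36 of 40 in K/L against Sox4 (all but Rpl41, Rps20, Rps24 and Rps27).

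**Figure D1:**
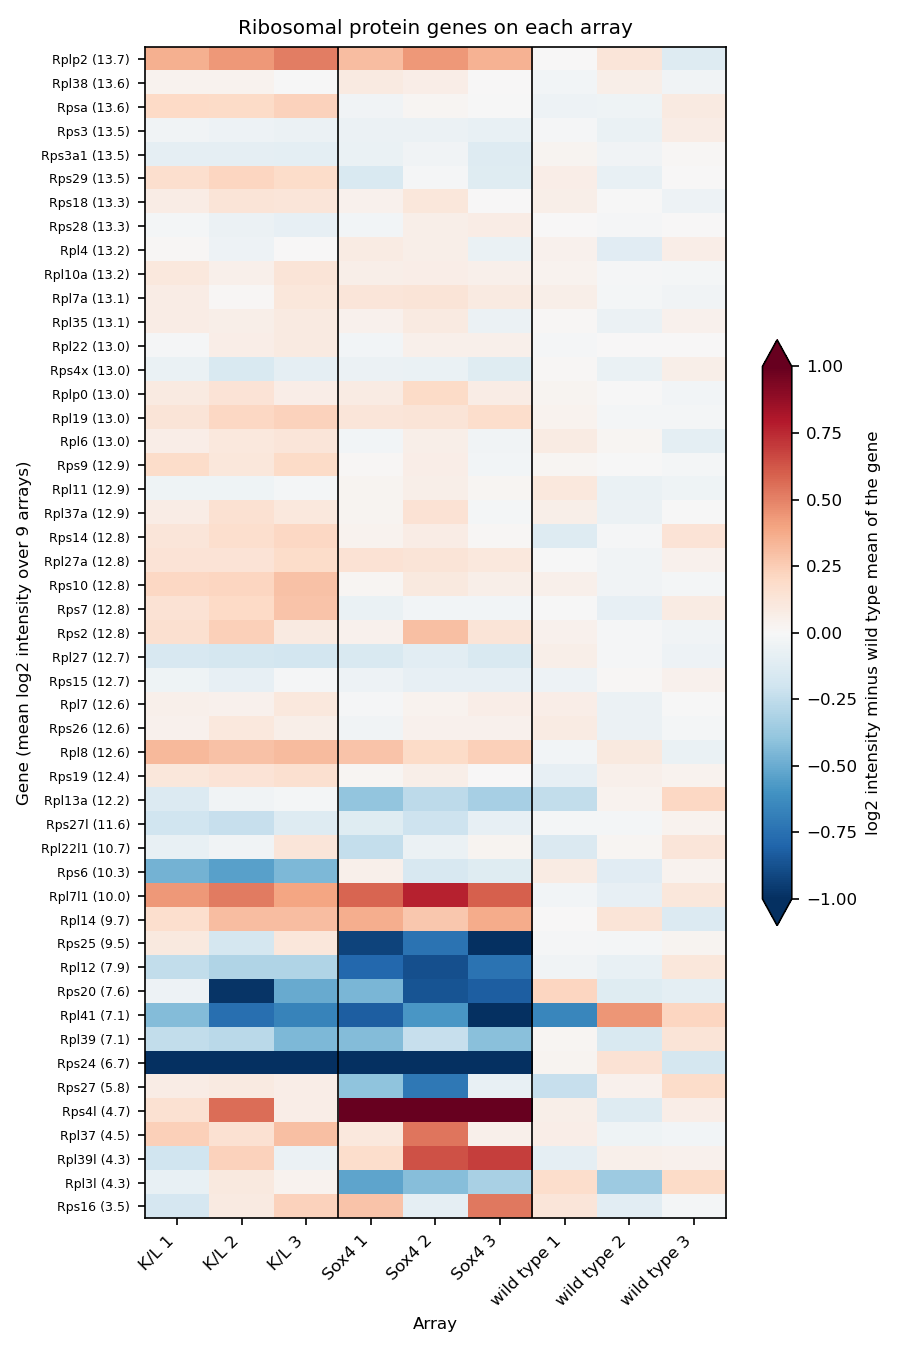
Log2 intensity of all 49 ribosomal protein genes on each array minus the gene's wild type mean, with genes (rows) sorted by their mean over 9 arrays, printed beside the name, and K/L, Sox4 and wild type arrays in columns. Colours stop at 1 either way; most rows are near white, Rps24 is low on the 6 leukaemic arrays, and Rps4l is high on the Sox4 arrays alone.

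The stalk is the flexible arm of the large subunit that recruits elongation factors. Rplp2, one of its acidic proteins, had log2 intensities of 13.75, 13.82 and 13.91 in K/L, 13.70, 13.83 and 13.74 in Sox4, and 13.40, 13.52 and 13.27 in wild type cells. Every leukaemic array lay above every wild type array. The difference from wild type was 0.43 ± 0.10 (SE) in K/L (1.35-fold, adjusted p = 0.0049) and 0.36 ± 0.10 in Sox4 cells (1.28-fold, adjusted p = 0.013). Rplp0, the base on which the stalk dimers sit, measured 13.04 ± 0.04 in K/L, 13.06 ± 0.07 in Sox4 and 12.94 ± 0.03 in wild type cells (SD, n = 3). Its differences of 0.10 and 0.12 did not pass (adjusted p = 0.36 and 0.28), although the leukaemic arrays lay above wild type. Rpl12, which lies at the foot of the stalk, went the other way. It measured 8.04, 7.99 and 7.98 in K/L, 7.50, 7.41 and 7.55 in Sox4, and 8.25, 8.21 and 8.40 in wild type cells, so the groups did not overlap. The difference was -0.28 ± 0.09 in K/L (adjusted p = 0.027) and -0.80 ± 0.09 in Sox4 cells (0.574-fold, adjusted p = 6.9e-05).

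Rpl8 is a large subunit protein close to the peptidyl transferase centre. It measured 12.72, 12.69 and 12.72 in K/L, 12.69, 12.59 and 12.64 in Sox4, and 12.37, 12.49 and 12.33 in wild type cells. All leukaemic values exceeded those of wild type, by 0.31 ± 0.09 in K/L (adjusted p = 0.014) and 0.24 ± 0.09 in Sox4 cells (adjusted p = 0.044). Rpl14, also of the large subunit, had 9.65, 9.79 and 9.79 in K/L, 9.84, 9.75 and 9.86 in Sox4, and 9.49, 9.62 and 9.35 in wild type cells. It rose in Sox4 cells by 0.33 ± 0.10 (adjusted p = 0.020), and its difference of 0.26 in K/L did not pass (adjusted p = 0.052). Rpl13a, which also takes part in interferon-induced translational silencing, measured 12.21, 12.31 and 12.32 in K/L, 11.95, 12.08 and 12.02 in Sox4, and 12.10, 12.38 and 12.55 in wild type cells. The Sox4 arrays lay below both other groups, with a difference from wild type of -0.33 ± 0.12 (adjusted p = 0.045). In K/L, 2 of the 4 probe sets of Rpl13a fell as well, by 0.28 for 1433928_a_at (adjusted p = 0.045 over probe sets) and 0.30 for 1455001_x_at (adjusted p = 0.034), and in Sox4 cells these differed by -0.31 and -0.32.

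The small basic proteins Rpl39 and Rpl41 of the large subunit had dimmer probe sets. Rpl39, an X-linked gene whose product lines the exit tunnel, measured 7.08, 7.06 and 6.88 in K/L, 6.90, 7.10 and 6.91 in Sox4, and 7.35, 7.18 and 7.46 in wild type cells. It was lower than in wild type, with differences of -0.32 ± 0.11 in K/L (adjusted p = 0.035) and -0.36 ± 0.11 in Sox4 cells (adjusted p = 0.023) and no overlap. Rpl41 had 7.17, 6.85 and 6.94 in K/L, 6.79, 7.02 and 6.41 in Sox4, and 6.95, 8.04 and 7.82 in wild type cells. Its fall in Sox4 cells passed (-0.87 ± 0.26, adjusted p = 0.021) although wild type array 1 lay within the Sox4 range. The brightest of the other probe sets of Rpl41 differed by 0.06 in the same comparison.

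The remaining large subunit members did not pass in any of the 3 comparisons. They included Rpl11, which binds MDM2 when free of the ribosome (-0.03 in K/L and 0.04 in Sox4 against wild type), Rpl19 (0.19 and 0.14, adjusted p = 0.085 and 0.19) and Rpl27 (-0.17 and -0.14, adjusted p = 0.11 and 0.20). Rpl4, Rpl6, Rpl7a, Rpl10a, Rpl35, Rpl37a and Rpl38 lay within 0.12 of wild type in both leukaemias. Rpl37 failed the filter, with 4.55 in K/L, 4.55 in Sox4 and 4.32 in wild type cells. In all, 2 of 21 tested core genes of the large subunit were higher and 2 lower in K/L, and 3 higher and 4 lower in Sox4 cells, than in wild type.

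Among small subunit genes, Rps6 encodes the protein phosphorylated by S6 kinase downstream of mTOR. It measured 10.01, 9.94 and 10.03 in K/L, 10.53, 10.32 and 10.36 in Sox4, and 10.56, 10.37 and 10.51 in wild type cells. K/L arrays lay below all 6 others, and Sox4 and wild type arrays overlapped. The difference from wild type was -0.49 ± 0.10 in K/L (0.713-fold, adjusted p = 0.0023) and -0.08 ± 0.10 in Sox4 cells (adjusted p = 0.55). Rps10, at the mRNA entry side and a ubiquitination target when ribosomes collide, had 12.89, 12.90 and 12.97 in K/L, 12.70, 12.78 and 12.74 in Sox4, and 12.73, 12.64 and 12.66 in wild type cells. K/L arrays were the highest, by 0.24 ± 0.08 over wild type (adjusted p = 0.037), and the Sox4 difference was 0.06 (adjusted p = 0.60).

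Rps25, needed for initiation at several viral internal ribosome entry sites, measured 9.85, 9.58 and 9.86 in K/L, 8.83, 9.01 and 8.75 in Sox4, and 9.74, 9.73 and 9.78 in wild type cells. The Sox4 arrays stood apart below the other 6, at -0.89 ± 0.11 from wild type (0.541-fold, adjusted p = 0.00013), and K/L differed from wild type by 0.01 (adjusted p = 0.94). Rps20, another target of ubiquitination on collided ribosomes, had 7.97, 7.04 and 7.52 in K/L, 7.57, 7.16 and 7.20 in Sox4, and 8.24, 7.90 and 7.93 in wild type cells. Sox4 arrays lay below wild type (-0.71 ± 0.22, adjusted p = 0.022). K/L array 1 lay within the wild type range, and the K/L difference of -0.51 did not pass (adjusted p = 0.077). Rps24 had 6.14, 6.16 and 6.53 in K/L, 6.12, 5.77 and 6.03 in Sox4, and 7.77, 7.88 and 7.56 in wild type cells with the probe set used for it. That is -1.46 ± 0.14 in K/L (adjusted p = 2.5e-05) and -1.76 ± 0.14 in Sox4 cells (adjusted p = 7.9e-06), a difference that its brighter probe sets, described below, did not show.

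Among genes known from Diamond-Blackfan anaemia, Rps10 passed the test against wild type in K/L and Rps24 in both leukaemias, as given above, while Rpl11, Rps7, Rps19 and Rps26 did not pass in either. Rps19, the gene most often mutated in Diamond-Blackfan anaemia, measured 12.47 ± 0.02 in K/L, 12.37 ± 0.03 in Sox4 and 12.34 ± 0.07 in wild type cells (SD, n = 3), with no difference past the test (adjusted p = 0.21 in K/L and 0.81 in Sox4 cells). Rps26 differed by 0.07 in K/L and 0.02 in Sox4 cells. Rps14, the gene of the acquired 5q- syndrome, differed by 0.17 (adjusted p = 0.18) and 0.04. Rps7 lay at 12.85, 12.91 and 12.99 in K/L, 12.65, 12.68 and 12.68 in Sox4, and 12.71, 12.63 and 12.80 in wild type cells. Each K/L array of Rps7 was above each wild type array, and the difference of 0.21 did not pass (adjusted p = 0.075). Rpsa, also called the laminin receptor, differed by 0.21 in K/L (adjusted p = 0.066) and by -0.01 in Sox4 cells. Without wild type array 3, the array that correlated least with its replicates, Rps7, Rps14 and Rpsa passed in K/L and the count of higher members was 7. In that fit 6653 of 12826 tested genes passed in K/L, against 6490 with all arrays.

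Rps27 measured 5.96, 5.97 and 5.95 in K/L, 5.48, 5.17 and 5.81 in Sox4, and 5.66, 5.93 and 6.07 in wild type cells, and passed in neither comparison with wild type. X-linked Rps4x (-0.10 in K/L and -0.08 in Sox4 cells), Rps3a1 (-0.09 and -0.08), Rps28 (-0.05 and 0.03), Rps3 (-0.05 and -0.06) and Rps15 (-0.05 and -0.07) did not pass in K/L or in Sox4 cells. Rps16, read by a probe set with 3.42 in K/L, 3.61 in Sox4 and 3.37 in wild type cells, failed the filter. Of 20 tested core genes of the small subunit, 1 was higher and 2 lower in K/L than in wild type, and in Sox4 cells 3 were lower and the other 17 did not pass.

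**Figure D2:**
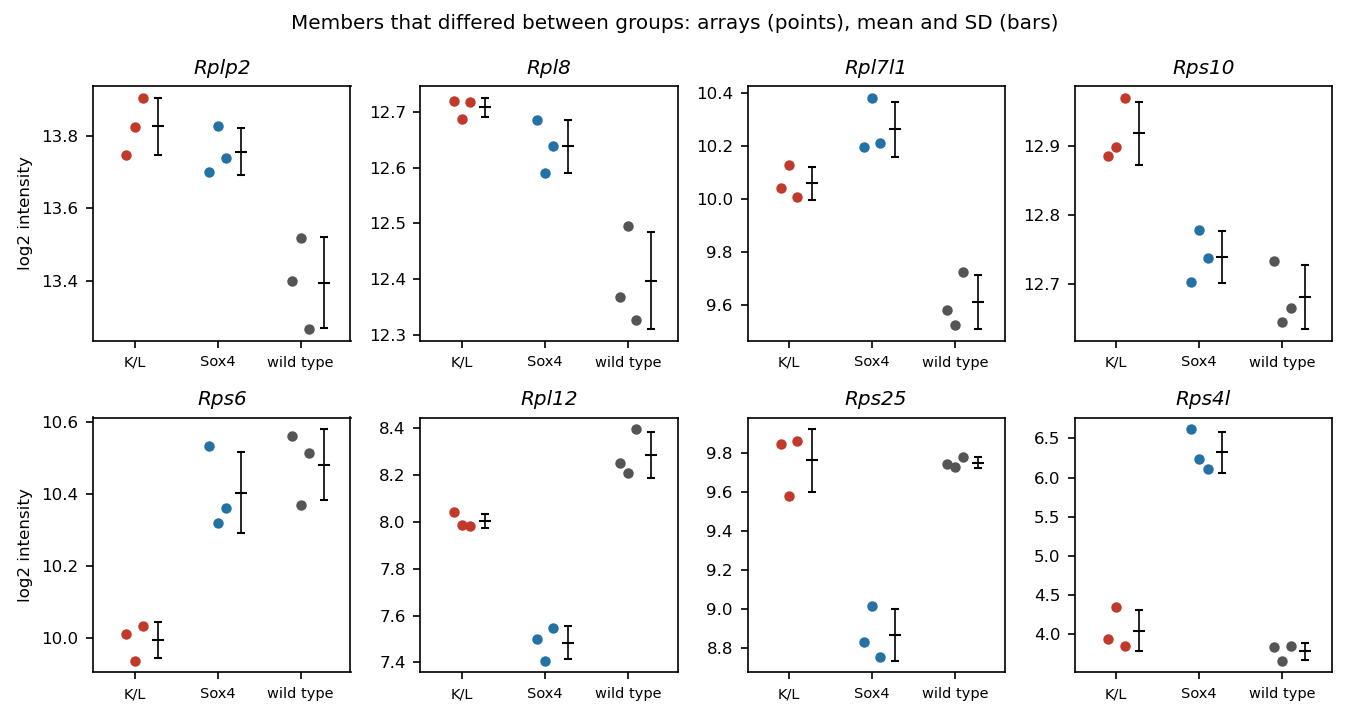
Log2 intensity of 8 ribosomal protein genes on each of the 3 arrays of K/L, Sox4 and wild type cells (points), with the group mean and SD (bars, n = 3); each panel has its own axis, and axes do not start at 0. Rplp2, Rpl8 and Rpl7l1 are high in both leukaemias, Rps6 is low in K/L, and Rps25 is low and Rps4l high in Sox4 cells.

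Rpl7l1 encodes a relative of Rpl7 that acts in assembly of the large subunit. It measured 10.04, 10.13 and 10.01 in K/L, 10.20, 10.38 and 10.21 in Sox4, and 9.58, 9.53 and 9.72 in wild type cells. All leukaemic arrays lay above wild type, by 0.45 ± 0.10 in K/L (1.36-fold, adjusted p = 0.0038) and 0.65 ± 0.10 in Sox4 cells (1.57-fold, adjusted p = 0.00042). Its 2 other probe sets gave 0.56 and 0.49 in K/L and 0.55 and 0.37 in Sox4 cells, all past the test over probe sets. Rpl7 itself differed by 0.07 and 0.03 (adjusted p = 0.54 and 0.78).

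Rps4l, an autosomal relative of Rps4x, measured 3.93, 4.34 and 3.85 in K/L, 6.62, 6.24 and 6.11 in Sox4, and 3.84, 3.66 and 3.85 in wild type cells. It passed the filter through its Sox4 arrays alone, since all K/L and wild type values lay below the 40th percentile of their arrays (4.84 to 4.95). A gene that enters this way has to differ, so its values are a description and the size of its rise is not drawn from them. All 3 Sox4 arrays lay above the other 6, and K/L and wild type arrays overlapped.

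The other relatives did not pass in K/L or in Sox4 cells. Rpl22l1, the paralogue that Rpl22 represses in mice, measured 10.75 ± 0.10 in K/L, 10.65 ± 0.13 in Sox4 and 10.74 ± 0.13 in wild type cells, all SD with n = 3. Rpl22, a tumour suppressor in T cell leukaemia, measured 13.07 ± 0.05 in K/L, 13.05 ± 0.05 in Sox4 and 13.03 ± 0.01 in wild type cells. Rps27l, a p53 target, measured 11.55, 11.53 and 11.63 in K/L, 11.64, 11.55 and 11.67 in Sox4, and 11.74, 11.73 and 11.79 in wild type cells. Its leukaemic arrays lay below wild type without passing (-0.18 in K/L, adjusted p = 0.098, and -0.14 in Sox4 cells, adjusted p = 0.22). Rpl3l, used in striated muscle, and Rpl39l, used in male germ cells, failed the filter. Rpl3l averaged 4.45 in K/L, 4.01 in Sox4 and 4.43 in wild type cells, and Rpl39l 4.15 in K/L, 4.66 in Sox4 and 4.16 in wild type cells.

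The leukaemias were also set against each other, as a comparison of the K/L and Sox4 models, both of which carry high Sox4. Rps25 was higher in K/L than in Sox4 cells by 0.90 ± 0.11 (1.86-fold, adjusted p = 0.00021) and Rpl12 by 0.52 ± 0.09 (1.43-fold, adjusted p = 0.0021). Rps29, a zinc-binding protein of the small subunit, measured 13.62, 13.67 and 13.64 in K/L, 13.31, 13.45 and 13.34 in Sox4, and 13.53, 13.38 and 13.46 in wild type cells. Its K/L arrays lay above both other groups, and the difference from Sox4 cells was 0.28 ± 0.09 (adjusted p = 0.037). That call was lost with the mean of the probe sets of Rps29. Its other probe sets gave 0.24 (1437413_x_at, adjusted p = 0.073 over probe sets) and 0.05 (1438859_x_at, adjusted p = 0.74). Rps6 was lower in K/L than in Sox4 cells (-0.41 ± 0.10, adjusted p = 0.011). That call rests on 1416142_at: with the mean of both probe sets of Rps6 the difference was -0.15 (adjusted p = 0.45), without Sox4 array 1 it was -0.35 (adjusted p = 0.050), and in 1453466_at alone it was 0.12 (adjusted p = 0.75). Rps4l, counted as lower in K/L, has the limit given above. Rps27 (0.48, adjusted p = 0.052), Rps7 (0.25, adjusted p = 0.061) and Rpsa (0.21, adjusted p = 0.089) did not pass, though their K/L arrays lay above their Sox4 arrays. Of 96 tested member probe sets, 5 were higher (5.21%) and 4 lower (4.17%) in K/L than in Sox4 cells, against 12.2% and 14.5% of all. Those higher included 1435593_x_at of Rps7 (0.40, adjusted p = 0.014) and 1455600_at of Rps3 (0.55, adjusted p = 0.017). Those lower included 1416603_at of Rpl22 (-0.35, adjusted p = 0.023).

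Members with weaker signal held 5 of the 8 calls in K/L and 9 of the 12 in Sox4 cells. A boundary at a mean log2 intensity of 12 over the 9 arrays, chosen after the values were seen, separated 32 tested members (12.22 to 13.66) from 13 dimmer ones (4.72 to 11.65). Signal compares probe sets and does not order the genes by their RNA. Of the 32, 3 passed in K/L, all higher than wild type, and 2 were higher and 1 lower in Sox4 cells, with differences from -0.17 to 0.43 in K/L and from -0.33 to 0.36 in Sox4 cells. Of the 13, 1 was higher and 4 lower in K/L, with a median of -0.18, and 3 were higher and 6 lower in Sox4 cells, with a median of -0.36. The share past the threshold was 9.38% against 38.5% in K/L and 9.38% against 69.2% in Sox4 cells, in brighter and dimmer members. Among 189 other tested genes above the same boundary, 36.5% passed in K/L and 29.1% in Sox4 cells, and among 12592 others at or below it, 50.9% and 48.2%. Above the boundary, the difference without its sign had a median of 0.10 in members and 0.16 in other genes for K/L against wild type. It was 0.06 and 0.17 for Sox4 against wild type, and 0.05 and 0.11 for K/L against Sox4. The SD within a group had a median of 0.05 in the brighter members and 0.12 in the dimmer ones. The part that signal level plays in these counts was not tested.

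**Figure D3:**
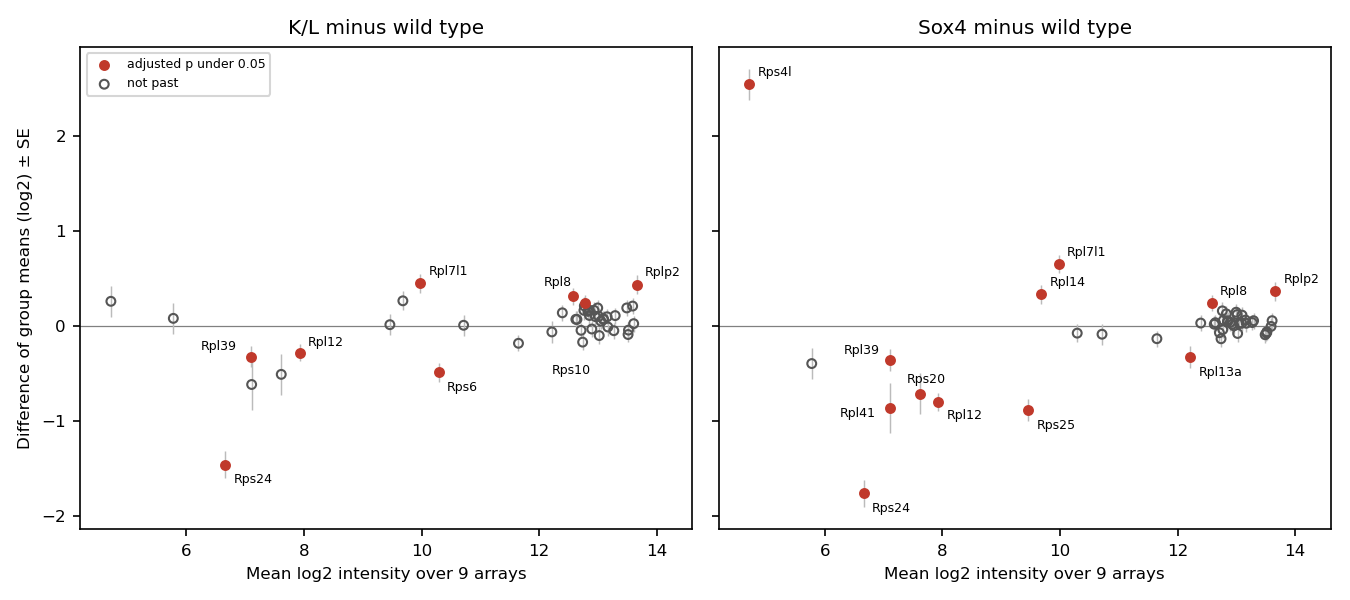
Difference of group means (log2, bars give the standard error) for the 45 tested ribosomal protein genes against their mean log2 intensity over 9 arrays, for K/L minus wild type on the left and Sox4 minus wild type on the right. Filled points passed an adjusted p of 0.05; members above 12 cluster near 0 and the larger differences lie at weaker signal.

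Probe sets of one gene did not always agree, which matters here because ribosomal protein genes have many processed pseudogenes. Suffixes _s_at and _x_at mark probe sets that match several transcripts or may match other genes. Over probe sets, p-values were adjusted over 29174 tested probe sets. For Rps24, the probe set used (1455195_at) had group means of 6.28 in K/L, 5.97 in Sox4 and 7.74 in wild type cells, while its 4 probe sets ending in _x_at lay between 12.63 and 13.09 and differed from wild type by -0.13 to 0.02. The fall of Rps24 therefore held for 1 of its 6 probe sets. For Rps20, 1421935_at fell with the probe set used (-0.56 in K/L, adjusted p = 0.0057, and -0.83 in Sox4 cells, adjusted p = 0.00063), and the 2 ending in _x_at differed by -0.06 to 0.03. For Rps10, 3 other probe sets rose in K/L, by 0.38, 0.33 and 0.28 (adjusted p = 0.0093, 0.022 and 0.035). One other probe set of Rps7 rose in K/L (1435593_x_at, 0.41, adjusted p = 0.0068), one of Rps18 fell (1421837_at, -0.54, adjusted p = 0.0049), and one of Rpl22 fell (1416603_at, -0.46, adjusted p = 0.0029). In Sox4 cells these differed from wild type by 0.00, -0.50 (adjusted p = 0.0081) and -0.11.

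Rps9 gave the widest disagreement and was singled out after its values were seen. The probe set used, 1433689_s_at, averaged 13.03 in K/L, 12.89 in Sox4 and 12.87 in wild type cells, and passed in no comparison. Probe set 1434624_x_at averaged 8.88 in K/L, 13.05 in Sox4 and 12.99 in wild type cells, a difference from wild type of -4.11 in K/L (adjusted p = 1.7e-08) and 0.06 in Sox4 cells (adjusted p = 0.73). Probe set 1426958_at averaged 7.14 in K/L, 6.96 in Sox4 and 8.53 in wild type cells, with differences of -1.39 and -1.57. The direction for Rps9 thus depended on the probe set, and no level of the gene is drawn from it. Among probe sets that name a ribosomal protein gene with other genes, 106 of 110 were tested, and 16 were higher and 9 lower in K/L, and 4 higher and 9 lower in Sox4 cells, than in wild type, with medians of 0.05 and 0.04. Over all tested probe sets 23.7% were higher and 26.4% lower in K/L, and 22.5% and 23.9% in Sox4 cells, against 15.1% and 8.49% of these in K/L and 3.77% and 8.49% in Sox4 cells.

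**Figure D4:**
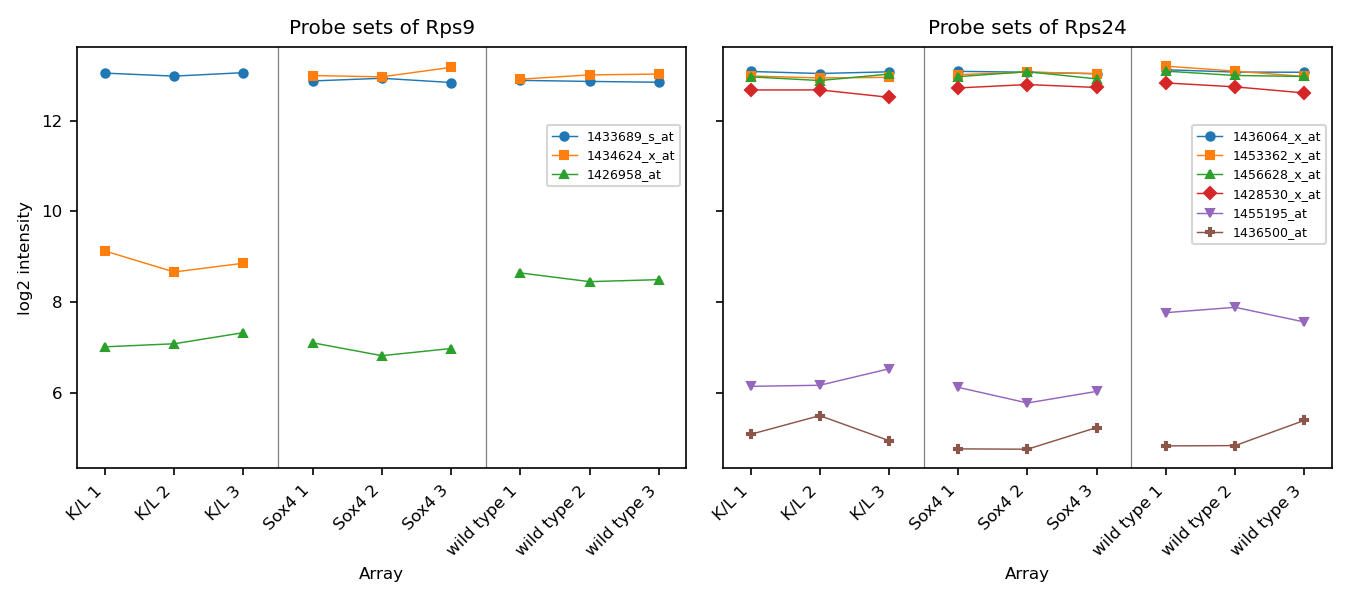
Log2 intensity of each probe set of Rps9 (left, 3 probe sets) and Rps24 (right, 6 probe sets) on the 9 arrays, in the order K/L, Sox4 and wild type; lines join the arrays of a group. One Rps9 probe set is low on the K/L arrays alone, and the fall of Rps24 appears in 1455195_at but not in the 4 brighter ones.

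Translation factors were described beside the ribosomal proteins from lists of known genes, each to be read against the shares over all tested genes (29% higher and 21.6% lower in K/L, 26.7% and 21.1% in Sox4 cells). Of 10 elongation factor genes tested of 11 listed, 4 were higher than in wild type and 6 did not pass in K/L (median 0.21), and 1 was higher and 9 did not pass in Sox4 cells (median 0.05), or 40% and 10% higher. Those higher in K/L were Eef2, the translocase (0.31, adjusted p = 0.026), its inhibitory kinase Eef2k (0.97, adjusted p = 0.00055), the selenocysteine factor Eefsec (1.11, adjusted p = 1.3e-05) and Eif5a2 (0.81, adjusted p = 0.011). Eef1a1, which delivers aminoacyl-tRNA, differed by -0.08 and -0.06. Of 28 initiation factor genes tested, 8 were higher and 3 lower in K/L (median 0.17), and 6 higher and 2 lower in Sox4 cells (median 0.15), with 28.6% and 21.4% higher, near or below the shares over all genes. Eif3b, a core subunit of eIF3, rose by 1.19 in K/L and 1.05 in Sox4 cells, and Eif4ebp2, which binds eIF4E and blocks cap-dependent initiation, by 1.18 and 0.99. The helicase gene Eif4a2 fell by 0.69 and 0.57.

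The 18 other genes with TOP mRNAs, which share the start tract of the ribosomal protein genes, had 4 higher and 2 lower in K/L (median 0.04) and 5 higher and 4 lower in Sox4 cells (median 0.01), or 22.2% and 27.8% higher. Lgals1 (galectin-1) rose by 2.22 in K/L and 2.02 in Sox4 cells, and without wild type array 3 its differences were 1.47 and 1.27. Another riser was Pabpc1, the poly(A)-binding protein, with 0.72 in K/L and 0.65 in Sox4 cells. Snhg1, a host gene of small nucleolar RNAs, fell by 0.44 and 0.51. Ribosomal protein chaperones and ribosome assembly factors numbered 22 tested, with 10 higher and 3 lower in K/L (median 0.12) and 10 higher and 3 lower in Sox4 cells (median 0.23), or 45.5% higher and 13.6% lower in each. Among them Rrp12, which in yeast is needed to export pre-ribosomes, rose by 0.99 and 1.21, Bop1 of the PeBoW complex by 0.80 and 0.92, and Grwd1, whose yeast counterpart is the chaperone of Rpl3, by 0.58 and 0.67. Nmd3, the export adaptor of the large subunit, fell by 0.54 and 0.59. Fau, whose product includes the small subunit protein eS30, rose in K/L (0.27, adjusted p = 0.019) and differed by 0.08 in Sox4 cells (adjusted p = 0.47). Of 76 mitochondrial ribosomal protein genes, 21 were higher and 12 lower in K/L (median 0.06), and 26 higher and 8 lower in Sox4 cells (median 0.11), or 27.6% and 34.2% higher. Both comparisons use the same wild type arrays, so the changes in K/L and in Sox4 cells are not independent, and the lists were not tested against one another.

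**Figure D5:**
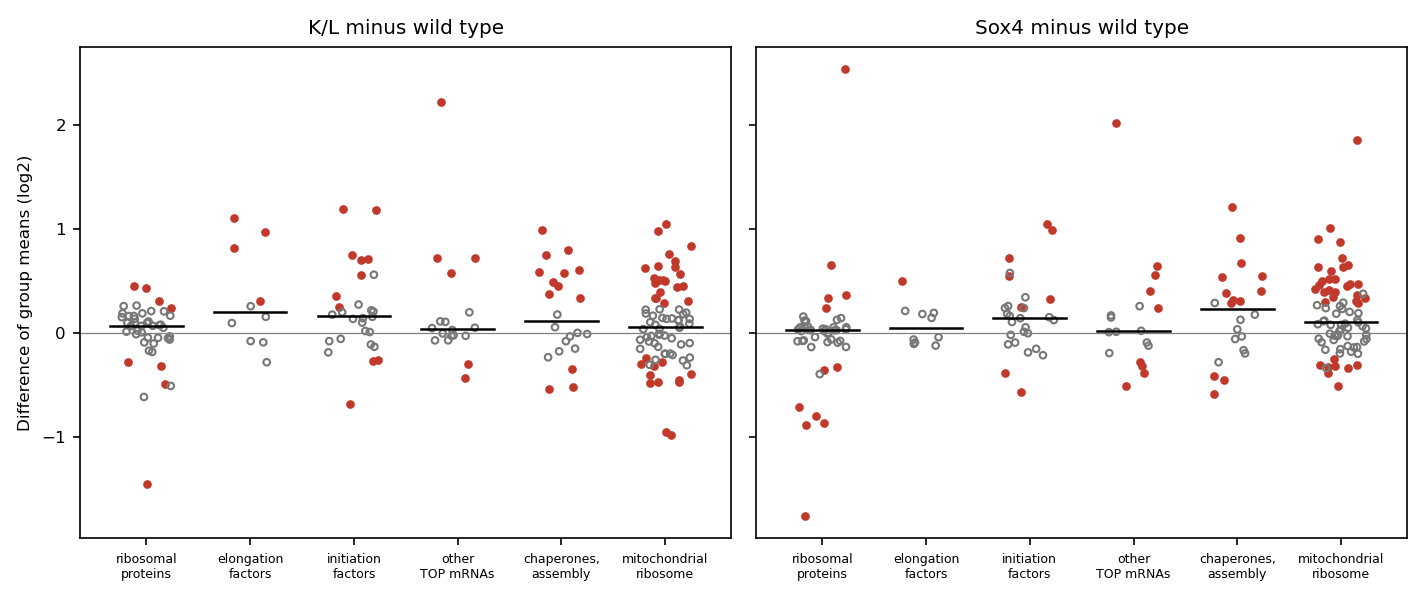
Difference of group means (log2) of tested genes in 6 lists, for K/L minus wild type on the left and Sox4 minus wild type on the right; each point is a gene, filled red where its adjusted p is under 0.05, with horizontal spread for legibility, and the bar is the list's median. Cytosolic ribosomal protein genes lie close to 0 but for a few, with a median of 0.07 in K/L and 0.02 in Sox4 cells, and the assembly factors have medians of 0.12 in K/L and 0.23 in Sox4 cells.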

How the data were processed

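Gene expression was measured on 9 Affymetrix arrays from total RNA of sorted cells, labelled as biotin cRNA from 5 µg per the labels' protocols. The authors deposited linear intensity values of 45101 probe sets in a single table, floored at 8 and reaching 22474.538. The submitters' processing notes name RMA, with no version or later step given in the sources used here. Groups came from sample titles.

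Values were log2 transformed and kept on the deposited scale. The platform annotation gave exactly 1 symbol for 34958 probe sets, several for 932 and none for 9211, and only the first were used for genes. A gene was represented by the probe set of highest mean over 9 arrays, with _x_at probe sets used only where a gene had no other. Genes above the 40th percentile of the array on at least 3 arrays were tested (12826 genes). Differences were tested with limma 3.58.1 (R 4.3.3) in 1 fit of 9 arrays with group as the only term (6 residual and 3.71 prior degrees of freedom), with Benjamini-Hochberg adjustment at 0.05 over all tested genes. A two-sided permutation test of 3 against 3 arrays cannot go below 0.1, so none is given. The procedure was tested on simulated data. Every planted change was larger than many of the differences called here, so recovery of changes that small was not tested. Symbols of all 49 members were found in RefSeq's gene table of GRCm38.p6, and sequences are RefSeq's of that build.

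The members, the lists of translation genes and the split by signal were chosen with earlier results of these data known. Genes named in the text are the members with the 5 largest rises and the 5 largest falls of each comparison past the test without overlap, stalk, anaemia, paralogue and X-linked members, members that failed the filter or whose probe sets disagreed, and up to 4 genes per list. Not all are printed. Alternatives were 4 scalings, 3 rules for the probe set of a gene, 2 filters, an intensity trend, a fit of 2 groups, a replicate block and leaving out each array.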

Additional observations from a re-analysis of the deposited data

Results flagged for a closer look

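The fit across all 9 arrays tested whether a member's difference from wild type was unequal in the 2 leukaemias, through the K/L minus Sox4 term. It was past the threshold for 5 ribosomal protein genes, against 28.9% of all tested genes, and both differences use the same wild type arrays.

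Rps4l was lower in K/L than in Sox4 cells, by a log2 difference of -2.28, with K/L and wild type arrays below the filter level, so it was tested only through the Sox4 arrays, on which it is high, and the size has no support. Rps25 was 0.9 higher and Rpl12 0.52 higher in K/L than in Sox4 cells, Rps25 being lower than wild type in Sox4 cells alone and Rpl12 lower than wild type in K/L and, by more, in Sox4 cells. Rps6 was lower in K/L than in Sox4 cells (-0.41), where it did not differ from wild type past the test, and that call was lost with the mean of its probe sets (-0.15, adjusted p = 0.45) and without Sox4 array 1. Rps29 was 0.28 higher in K/L than in Sox4 cells and passed against wild type in neither. That call was lost with the mean of its probe sets, and its other probe sets (0.24 and 0.05) did not pass. The groups of 3 arrays are too small for a test of single arrays that stand apart. No explanation for these differences was tested.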

How the results depend on the processing

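The changes of Rplp2, Rpl7l1 and Rps6 in K/L, of Rpl7l1, Rpl12 and Rps25 in Sox4 cells, and of Rpl12 and Rps25 between the leukaemias passed with their direction under every alternative run for them. Rplp2, Rpl12 and Rps25 each rest on 1 probe set, so the 3 rules for the probe set of a gene could not change their differences. Whether another probe set would show the same is not known for them. Rps24 lost its fall in K/L (-0.02) with its brightest probe set. The other alternatives used 1455195_at, alone or within the mean, so they do not test whether the fall holds for other probe sets of the gene. Others near the threshold were less firm: Rps10 passed in 9 of 18 alternatives in K/L, Rpl39 in 8 of 18, Rpl12 in 12 of 18, Rpl13a in 8 and Rpl8 in 9 of 18 in Sox4 cells, and Rps29 in 9 of 18 between the leukaemias. Depth is not defined for arrays, and dim probe sets, with 3 arrays a group, limit what can be told for Rps27, Rps4l (tested through Sox4 arrays alone) and the members that failed the filter.

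For K/L against wild type, 4 members were higher and 4 lower, where 6490 of 12826 tested genes passed. Centring arrays on their medians gave 13 and 2 (median change 0.16), with 6713 genes past. Centring on the members gave 2 and 7 (median -0.029), with 6097 past. The mean of all probe sets gave 7 and 6, with 6591 of 12009 genes past. Without a filter it was 11 and 6 (6681 of 18194 genes), and with the stricter filter 7 and 4 (5799 of 9453). An intensity trend gave 13 and 5 (6675 of 12826), and a fit of these groups alone 3 and 2 (5866). For Sox4 against wild type, 5 were higher and 7 lower, with 6135 of all tested genes past. Centring on the members gave 3 and 7 (5800 genes past), and the trend 8 and 8 (6328). The brightest probe set gave 5 and 3 (6132 of 12866 genes), and no filter 6 and 4 (6201 of 18194). For K/L against Sox4, 3 were higher and 2 lower, with 3702 of all tested genes past. Median centring gave 7 and 2 (median 0.12, 4002 genes past). The mean of probe sets gave 5 and 2 (3795 of 12009), and no filter 5 and 2 (3688 of 18194). The trend gave 8 and 2 (3888), these groups alone 7 and 2 (4797), and the stricter filter 4 and 1 (3221 of 9453). Centred on the members it was 2 and 3, with a median of -0.060 (3446).

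Leaving out each array gave 3 to 7 higher and 2 to 4 lower in K/L (median 0.05 to 0.10), 3 to 5 and 4 to 6 in Sox4 cells (0.00 to 0.03), and 2 to 3 and 1 to 2 between the leukaemias (0.03 to 0.06). Of 12826 tested genes, 5595 to 6653 passed in K/L in these fits, 5224 to 6343 in Sox4 cells and 2786 to 2947 between the leukaemias. The high of 7 came without wild type array 3, without which Sox4 cells had 4 lower. K/L had 2 lower without K/L array 2 or 3, Sox4 cells had 3 higher without any one of their arrays and 4 lower without array 3, and the leukaemias differed by 1 lower without Sox4 array 1.

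Directions turned in Rps9 with the mean of its probe sets (-1.78 in K/L, -0.50 in Sox4 cells and -1.28 between them) and with probe sets other than _x_at and _s_at (-1.39 in K/L and -1.57 in Sox4 cells), in Rpl22 with that second rule (-0.46 in K/L and -0.35 between the leukaemias), and in Rpl41 (0.063) and Rps20 (0.024) in Sox4 cells with the brightest probe set. The probe sets themselves disagree there, and the cause was not tested. Same-numbered arrays did not deviate together (correlations from -0.02 to 0.08), so no pairing by number was seen. With 3 arrays a group this cannot show that the numbers carry none. With the replicate block, 3 members were higher and 4 lower in K/L, 4 and 7 in Sox4 cells, and 3 and 2 between the leukaemias. Of 12826 tested genes, 6369, 5999 and 3503 passed in that fit.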
